A study of Rattus norvegicus with 7 samples.

Results

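Axon guidance ligands and receptors were examined in hippocampus and hypothalamus of male Sprague Dawley rats. They were chosen by symbol, as the Eph receptors, ephrins, semaphorins, plexins, neuropilins, netrins, netrin-Gs, Slits, Robos, Unc5 receptors and Dcc listed in the tables of both tissues. The rule found 59 of the 15805 symbols that both tables share. The study measured the effect of dietary DHA (docosahexaenoic acid, a lipid of brain membranes) on the transcriptome and methylome of these regions. All 7 libraries analysed here were from DHA-fed rats, 2 months old when assigned to a diet that lasted 6 weeks, with 4 libraries of hippocampus and 3 of hypothalamus. Animals on chow are not analysed here. Both groups described carry the DHA diet, and nothing is said of what the diet does. Each library is RNA of a whole dissected region, in which fewer cells of a type and less RNA per cell cannot be told apart.

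Guidance cues steer growing axons by attraction and repulsion. Ephrins are tethered to membranes and bind Eph receptor tyrosine kinases, class 3 semaphorins are secreted and act through neuropilin and plexin complexes, Slits repel through Robo receptors, and netrins act through Dcc and the Unc5 receptors. Many of these genes remain expressed in the adult brain, where ephrin and semaphorin signalling is known for its part in dendritic spines and synaptic plasticity, in particular in hippocampus.

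Levels are given in FPKM as the authors computed them, that is, as fragments per kilobase of a transcript, adjusted for the size of the library. Because FPKM are per length, levels of different genes can be set side by side within a table. The tissues sit in separate tables, so tissue and table cannot be told apart and no test was made between them. For the comparison, each library was rescaled to the same sum over the shared symbols, and a difference is that of mean log2(rescaled value + 1), hippocampus minus hypothalamus, with a standard error (SE) over the 4 and 3 libraries. On this scale the change of low genes is understated. A gene was called for 1 tissue if its lowest library there exceeded the highest of the other tissue and the difference reached 2-fold. Of the members, 57 averaged 1 FPKM or more in hippocampus or hypothalamus and were compared. Epha1 and Ntn5 were below that in both.

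The dissections matched their labels. The 4 hippocampal markers Neurod6, Slc17a7, Wfs1 and Itpka were called higher in hippocampus, and the 6 hypothalamic peptide genes Oxt, Avp, Pmch, Hcrt, Pomc and Cartpt were called higher in hypothalamus. Choroid plexus markers differed between hippocampus libraries, with Ttr at 31.9 FPKM in replicate 2 and at 1967 to 5771 FPKM in the others. For Epha4, Efnb3, Sema3c and Unc5c, replicate 1 stands apart from the other libraries of its tissue, with values at or near 0 at 1 of the 2 loci listed. Several loci were listed for 7 members in hippocampus and 4 in hypothalamus, and the locus with the highest mean was used. Without replicate 1 of both tissues, 16 members were called higher in hippocampus and 7 in hypothalamus, in place of the 15 and 6 described next, while the shares over all symbols were 18.1% and 15.9%.

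Guidance genes were called higher in hippocampus more often than in hypothalamus. Of the 57 members, 15 (26.3%) were called higher in hippocampus, where 14.5% of all 10736 symbols compared were. In hypothalamus 6 members (10.5%) were called, against 13.4% of all symbols. With non-overlap alone as the criterion, 27 members lay higher in every hippocampus library (47.4%, against 28.2% of all symbols) and 9 in every hypothalamus library (15.8%, against 24.4%). The median difference was 0.50 over the members and 0.05 over all symbols. With FPKM as deposited these medians were 0.20 and −0.21, the members' calls were 13 and 5, and 8.64% and 16.9% of all symbols were called. The members without overlap were then 21 towards hippocampus and 14 towards hypothalamus, against 19% and 35.2% of all symbols. Without hypothalamus replicate 1, the members without overlap numbered 30 towards hippocampus and 15 towards hypothalamus, against 36.8% and 29.4% of all symbols. Among the members without overlap, the threshold ran between Plxnd1, at a difference of 0.89, and Sema4b, at −1.07.

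The receptors and the ligands differed in these counts, a split by role that was made after the values were seen. Of 25 receptors, 10 (40%) were called for hippocampus and 0 for hypothalamus, where these shares over all symbols were 14.5% and 13.4%. Of 32 ligands, 5 (15.6%) were called higher in hippocampus and 6 (18.8%) in hypothalamus, which is near the shares over all symbols. The median difference was 0.89 for receptors and −0.08 for ligands, and under the other 4 scalings the receptor counts were 9 and 0. No test was made of the receptors against the ligands.

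**Figure D1:**
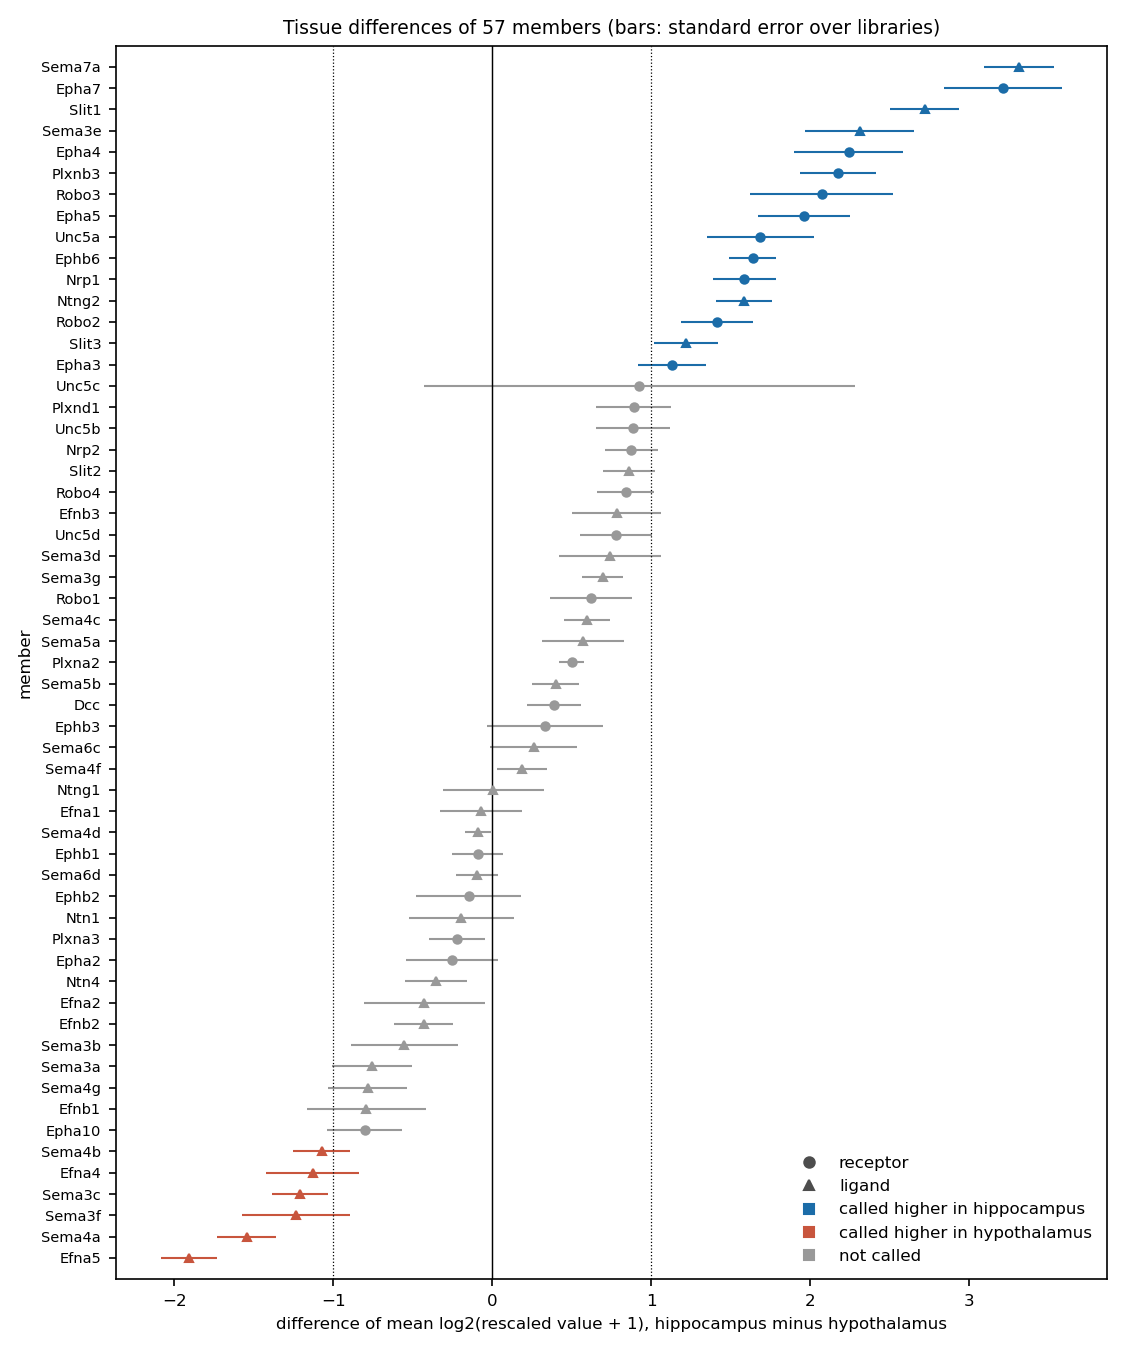
Difference of mean log2(rescaled value + 1), hippocampus minus hypothalamus, for the 57 members compared, with the standard error over libraries; circles are receptors, triangles ligands, dotted lines mark 2-fold. The 15 members called higher in hippocampus are led by Sema7a at 3.32 and the 6 called higher in hypothalamus by Efna5 at −1.91, and all 6 of the latter are ligands.

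The largest differences towards hippocampus were those of Sema7a and Epha7, and the largest towards hypothalamus among members of at least 5 FPKM those of Efna5 and Sema4a. Their upstream sequences are shown to place these 4 genes in the genome. Each run is the 250 bases before the RefSeq start in the rat assembly GRCr8, read 5′ to 3′ on the gene's strand, with capitals for the GC box GGGCGG and the E-box CAGCTG on either strand.
Sema7a (chr8:67244068-67244317, plus strand): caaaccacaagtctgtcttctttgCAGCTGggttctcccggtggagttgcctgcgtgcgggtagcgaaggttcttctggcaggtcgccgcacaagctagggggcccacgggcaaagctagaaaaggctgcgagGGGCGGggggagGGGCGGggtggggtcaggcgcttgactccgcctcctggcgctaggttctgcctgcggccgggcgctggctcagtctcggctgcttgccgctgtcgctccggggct
Epha7 (chr5:47771643-47771892, plus strand): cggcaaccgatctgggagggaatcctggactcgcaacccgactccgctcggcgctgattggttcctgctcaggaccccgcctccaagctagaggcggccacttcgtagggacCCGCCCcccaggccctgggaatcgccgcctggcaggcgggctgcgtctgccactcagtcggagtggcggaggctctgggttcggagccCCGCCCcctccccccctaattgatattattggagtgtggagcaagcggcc
Efna5 (chr9:110042188-110042437, minus strand): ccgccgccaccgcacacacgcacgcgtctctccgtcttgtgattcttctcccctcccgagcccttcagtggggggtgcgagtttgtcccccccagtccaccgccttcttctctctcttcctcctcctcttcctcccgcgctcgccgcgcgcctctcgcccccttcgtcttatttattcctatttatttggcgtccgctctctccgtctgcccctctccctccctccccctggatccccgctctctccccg
Sema4a (chr2:176212259-176212508, minus strand): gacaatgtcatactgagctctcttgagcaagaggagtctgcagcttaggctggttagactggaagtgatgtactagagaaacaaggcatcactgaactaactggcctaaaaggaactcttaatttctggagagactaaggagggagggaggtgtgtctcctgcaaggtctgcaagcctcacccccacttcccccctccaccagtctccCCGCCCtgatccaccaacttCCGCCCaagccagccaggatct
The windows of Sema7a, Epha7 and Efna5 hold 20, 20 and 23 CpG dinucleotides, and that of Sema4a holds 2. A window was found for 46 of the 59 members, whose median was 13.5 CpG, against 5 over all 33469 windows of the table. These windows are not limited to the 10736 symbols compared between tissues, unlike the shares of calls given above. The GC box occurred in 23 of the 46 (50%) and in 30.5% of all windows, and CAGCTG in 11 (23.9%) and in 12%. Another E-box, CAGATG, occurred in 2 members (4.35%) and in 14.0% of all windows, and the homeodomain motif TAATTA in 1 (2.17%) and in 4.86%. None of the 4 motifs contains another. Of the members called, the GC box was present in 7 of 13 with a window that were higher in hippocampus and in 2 of 5 that were higher in hypothalamus. These matches describe the letters of the windows and no binding was measured.

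The summed level of EphA receptors was higher in every hippocampus library and that of ephrin-A ligands in every hypothalamus library, with single members on either side. Of 6 EphA receptors compared, Epha3, Epha4, Epha5 and Epha7 were called higher in hippocampus, and of 4 ephrin-A genes, Efna4 and Efna5 were called higher in hypothalamus. Of all symbols, 14.5% were called for hippocampus and 13.4% for hypothalamus. Epha4, a receptor that binds ephrins of both classes, read 50.7, 52.1, 47.0 and 47.5 FPKM in hippocampus replicates 1 to 4 and 19.7, 10.5 and 9.30 FPKM in hypothalamus replicates 1 to 3. Its difference was 2.24 ± 0.34 (SE), and the hippocampus libraries lay close together while hypothalamus replicate 1 stood above the other 2. Epha7 read 29.3, 42.1, 26.9 and 43.6 FPKM in hippocampus and 6.66, 3.63 and 3.02 FPKM in hypothalamus. The difference of Epha7 was 3.22 ± 0.37 (SE), the largest among the receptors, with no overlap. Epha5, a receptor with a known part in synapse formation, read 24.5, 26.5, 23.5 and 36.6 FPKM against 11.5, 7.68 and 6.48 FPKM, a difference of 1.96 ± 0.29 (SE). In all 3 of these receptors, replicate 1 was the highest hypothalamus library. Epha3 was much lower, at 1.11 to 1.70 FPKM in hippocampus and 0.467 to 0.899 FPKM in hypothalamus, and its call was lost under each of the other 4 scalings. Epha10, a receptor that lacks kinase activity, went the other way, with 2.87 to 5.74 FPKM in hippocampus and 8.66 to 11.4 FPKM in hypothalamus, and its difference of −0.80 was under the threshold. Epha2 was at 1.22 FPKM or less in every library.

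Efna5, which encodes ephrin-A5, a ligand held in the membrane by a lipid anchor, read 2.44, 2.84, 3.65 and 2.97 FPKM in hippocampus. In hypothalamus it read 12.2, 14.8 and 18.0 FPKM, with a difference of −1.91 ± 0.18 (SE) and no overlap. Efna4 read 0.214 to 0.651 FPKM in hippocampus and 1.19 to 2.20 FPKM in hypothalamus, and its call was lost under each of the other 4 scalings and without hypothalamus replicate 2. Efna1 (2.18 to 3.59 and 2.40 to 4.08 FPKM) and Efna2 (1.41 to 2.85 and 1.89 to 4.51 FPKM) overlapped between the tissues, and the sign of Efna1 changed under quantile normalization.

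Summed over the 7 EphA receptors, hippocampus libraries held 112, 127, 106 and 133 FPKM and hypothalamus libraries 48.3, 33.5 and 31.6 FPKM. The 4 ephrin-A ligands summed to 9.19, 6.80, 8.72 and 7.07 FPKM in hippocampus and to 17.6, 25.1 and 27.6 FPKM in hypothalamus. The ratio of these sums is taken within a library, so that a factor applied to the whole library cancels. It was 12.2, 18.7, 12.2 and 18.8 in hippocampus, a mean of 15.5 ± 3.79 (SD, n = 4), and 2.74, 1.34 and 1.14 in hypothalamus, a mean of 1.74 ± 0.870 (SD, n = 3). Every hippocampus library thus had a ratio far above that of every hypothalamus library. Epha6, Epha8 and Efna3 were not among the members, so the sums and the ratio do not cover the whole A class. This ratio was chosen after the values were seen.

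**Figure D2:**
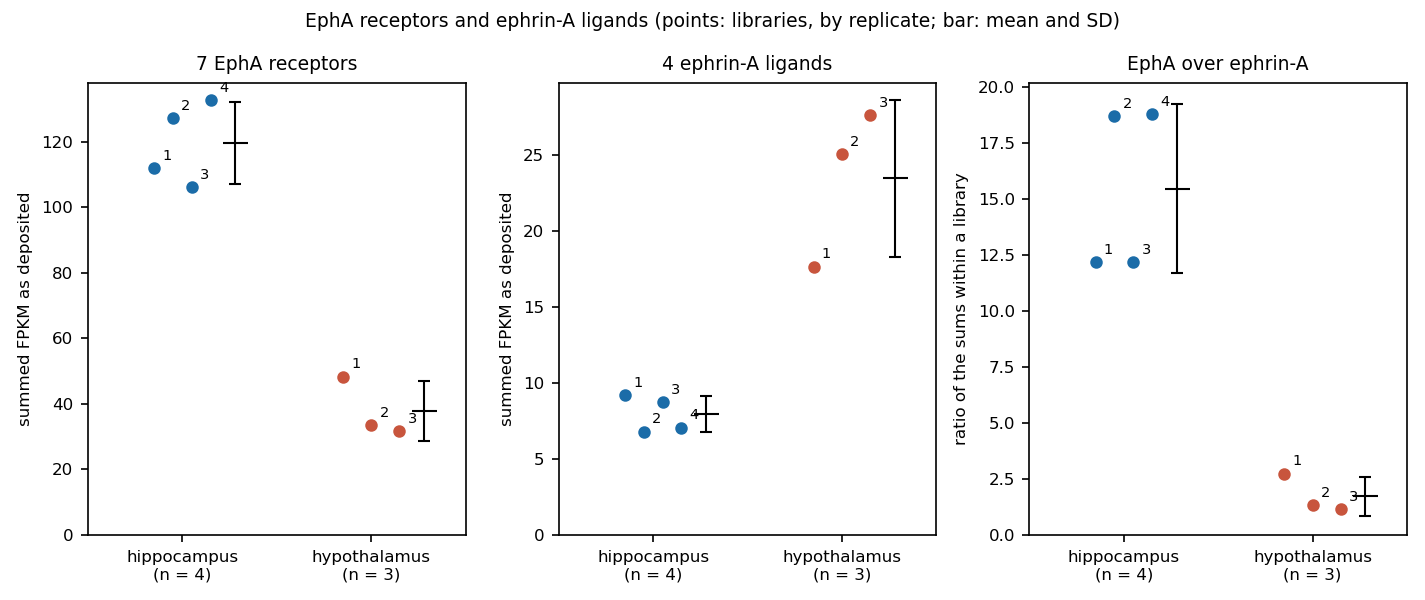
Summed FPKM of the 7 EphA receptors (left) and of the 4 ephrin-A ligands (middle), and their ratio within each library (right); points are libraries with their replicate number, bars the mean and SD. The ratio lies between 12.2 and 18.8 in hippocampus and between 1.14 and 2.74 in hypothalamus.

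The B class showed no such contrast in its ratio. EphB receptors over ephrin-B ligands gave a ratio of 0.575 ± 0.143 (SD, n = 4) in hippocampus and 0.543 ± 0.0535 (SD, n = 3) in hypothalamus, and the libraries overlapped. Of the 4 EphB receptors, 1 was called (25%, beside 14.5% of all symbols). This was the kinase-inactive Ephb6, at 27.5, 22.0, 22.9 and 19.2 FPKM in hippocampus and 8.10, 7.75 and 10.4 FPKM in hypothalamus, a difference of 1.64 ± 0.15 (SE). Ephb1 led the class in hypothalamus, at 15.4, 20.02 and 23.7 FPKM, and read 13.8 to 16.0 FPKM in hippocampus. As a share of the summed EphB FPKM, Ephb6 held 50.9% ± 1.53 (SD, n = 4) in hippocampus and 24.0% ± 3.73 (SD, n = 3) in hypothalamus, and Ephb1 held 33.2% ± 3.42 and 53.1% ± 1.37. Among the EphB receptors analysed, which did not include Ephb4, the leading one therefore differed between the tissues in every library. Ephb2 and Ephb3 overlapped between tissues.

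Among the ephrins analysed, which did not include Efna3, the transmembrane Efnb3 was the most abundant in both tissues. It read 58.1, 92.3, 67.4 and 66.3 FPKM in hippocampus and 35.8, 49.8 and 69.3 FPKM in hypothalamus. After rescaling to the same sum, the hippocampus libraries lay above the others by a difference of 0.78 ± 0.28 (SE), under 2-fold. Under each of the other 4 scalings, FPKM as deposited among them, the groups overlapped. Efnb1 was uneven in hypothalamus, at 4.65 FPKM in replicate 1 against 10.8 and 10.01 FPKM, and at 2.99 to 4.33 FPKM in hippocampus. Without hypothalamus replicate 1 it was called higher in hypothalamus. Efnb2 read 5.20 to 6.08 FPKM in hippocampus and 7.13 to 10.9 FPKM in hypothalamus. As deposited, Efnb1 and Efnb2 lay higher in every hypothalamus library, as 35.2% of all symbols did, and after rescaling both overlapped.

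**Figure D3:**
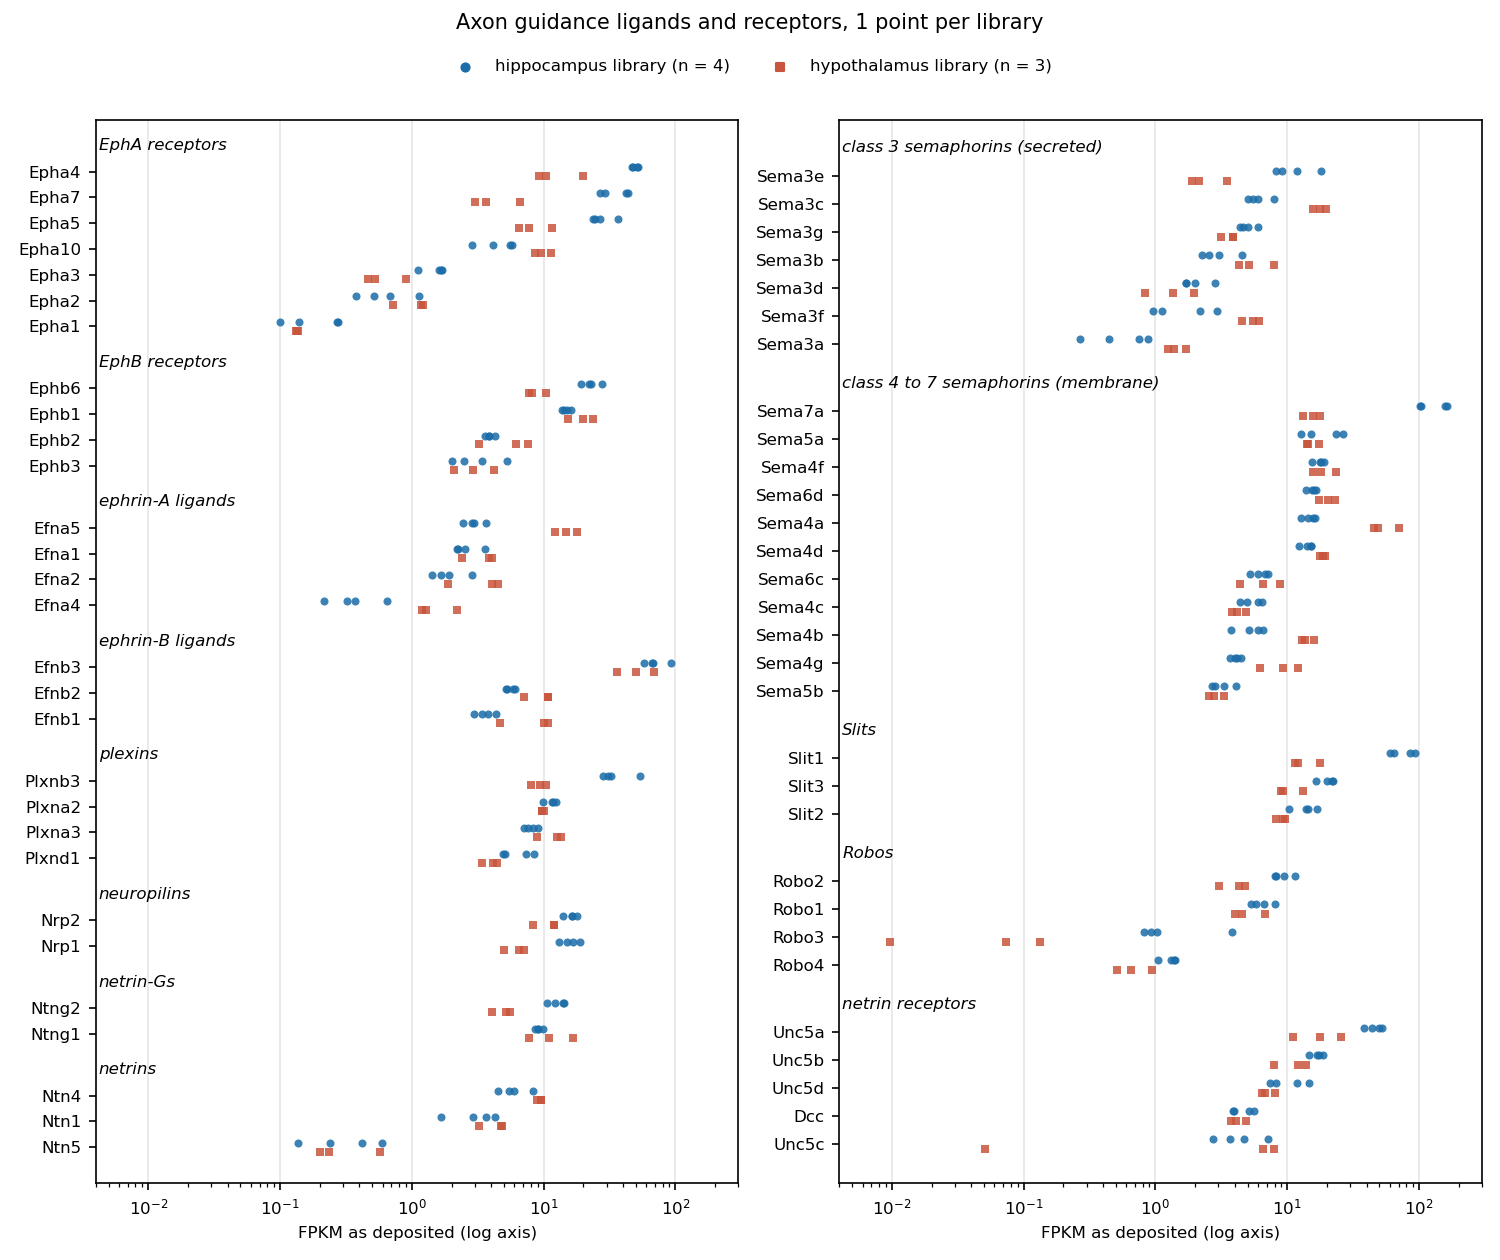
FPKM as deposited (log axis) of all 59 members in each library, by family, with circles for the 4 hippocampus libraries and squares for the 3 hypothalamus libraries. Sema7a, Slit1, Efnb3, Epha4 and Unc5a have the highest hippocampal means, and Unc5c has a single hypothalamus library far below the other 2.

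Of 7 secreted class 3 semaphorins, Sema3e was called higher in hippocampus and Sema3c and Sema3f in hypothalamus. These are 14.3% and 28.6% of the class, beside 14.5% and 13.4% of all symbols, and with 7 genes a single call is 14.3%. Sema3e, which binds plexin-D1 without a neuropilin, read 8.25, 11.9, 9.04 and 18.1 FPKM in hippocampus and 3.50, 2.16 and 1.90 FPKM in hypothalamus, a difference of 2.31 ± 0.34 (SE). Its hippocampus libraries were uneven, with an SD of log2(FPKM + 1) of 0.47. Sema3c read 5.01, 5.54, 5.95 and 7.90 FPKM in hippocampus and 19.7, 17.8 and 15.7 FPKM in hypothalamus, a difference of −1.21 ± 0.18 (SE). Sema3f, a ligand that acts mainly through neuropilin-2, read 2.17, 0.964, 2.90 and 1.11 FPKM against 4.50, 5.53 and 6.13 FPKM, and its difference of −1.23 ± 0.34 (SE) was no longer called under quantile normalization. Sema3a, the best-known ligand of neuropilin-1, was low, at 0.266 to 0.874 FPKM in hippocampus and 1.25 to 1.70 FPKM in hypothalamus.

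Within each library, Sema3e held 38.2% ± 9.09 (SD, n = 4) of the summed class 3 FPKM in hippocampus and 6.60% ± 1.82 (SD, n = 3) in hypothalamus. Sema3c held 19.96% ± 0.858 in hippocampus and 46.8% ± 1.80 in hypothalamus. The class as a whole overlapped, with sums of 25.9 to 37.4 FPKM and 34.1 to 40.3 FPKM. Sema3b was highest in hippocampus replicate 3 (4.57 FPKM) and hypothalamus replicate 2 (7.92 FPKM). The meningeal marker list, of which 6 of 7 genes were found and Col1a2 was listed at 0 throughout, was highest in the same libraries, at 4.17 and 4.72 in mean log2(FPKM + 1) within ranges of 1.99 to 4.17 and 2.89 to 4.72. Its part in Sema3b was not tested.

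Membrane semaphorins held the member with the highest level of all. Sema7a, a lipid-anchored semaphorin that signals through integrins and plexin-C1, read 101, 158, 162 and 104 FPKM in hippocampus and 13.0, 17.7 and 15.7 FPKM in hypothalamus, a difference of 3.32 ± 0.22 (SE). The groups lay far apart, and within hippocampus replicates 2 and 3 were above replicates 1 and 4. Sema4a lay the other way, at 16.2, 15.7, 14.4 and 12.6 FPKM in hippocampus and 45.1, 48.4 and 70.0 FPKM in hypothalamus, a difference of −1.55 ± 0.19 (SE). Sema4b, at 5.15, 6.60, 6.03 and 3.75 FPKM against 12.9, 13.6 and 16.1 FPKM, was called by a difference of −1.07 ± 0.18 (SE), a call that was lost without hippocampus replicate 4. Of the 11 genes compared, 9.09% were thus called for hippocampus and 18.2% for hypothalamus, beside 14.5% and 13.4% of all symbols. The other 8 were not called and read between 2.56 and 26.4 FPKM. Among them, Sema4d, which acts on plexin-B receptors, read 14.2 ± 1.38 FPKM (SD, n = 4) and 18.6 ± 0.714 FPKM (SD, n = 3). Sema5a was the least even in hippocampus, at 12.7, 23.4, 15.1 and 26.4 FPKM.

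The leading membrane semaphorin among those analysed thus changed between the tissues. Sema7a held 54.7% ± 6.14 (SD, n = 4) of the summed FPKM of this group in hippocampus and 8.64% ± 1.36 (SD, n = 3) in hypothalamus, and Sema4a held 6.31% ± 1.11 and 29.9% ± 3.22. Oligodendrocytes are a known source of some class 4 and 6 semaphorins. The oligodendrocyte list, with 8 of 8 genes found and none at 0, read 8.06 to 8.23 in hippocampus and 8.39 to 8.71 in hypothalamus in mean log2(FPKM + 1) as deposited, with 1 of its genes called higher in hypothalamus and 0 in hippocampus. As deposited, its genes did not go 1 way. Mog and Cnp were higher in every hippocampus library, and Mbp and Mobp in every hypothalamus library. The other glial lists were also higher or level in hypothalamus as deposited. Library sums were then 443335 to 471484 FPKM there and 370020 to 391349 FPKM in hippocampus. After rescaling, median differences were −0.12 for the oligodendrocyte list, −0.35 for astrocytes, −0.43 for microglia and −0.07 for oligodendrocyte precursors. The astrocyte list (6 of 6 genes found, none at 0) read 7.01 to 7.11 and 7.32 to 7.66, with 1 gene called for hippocampus and 2 for hypothalamus. The microglia list (7 of 7 found, none at 0) read 4.30 to 4.74 and 5.22 to 5.27, with 0 and 1 called. The list of oligodendrocyte precursors (3 of 4 found, none at 0) read 2.80 to 3.39 and 3.39 to 3.75, with 0 called. The part of these lists in the Sema4a, Sema4b and Efna5 values was not tested.

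**Figure D4:**
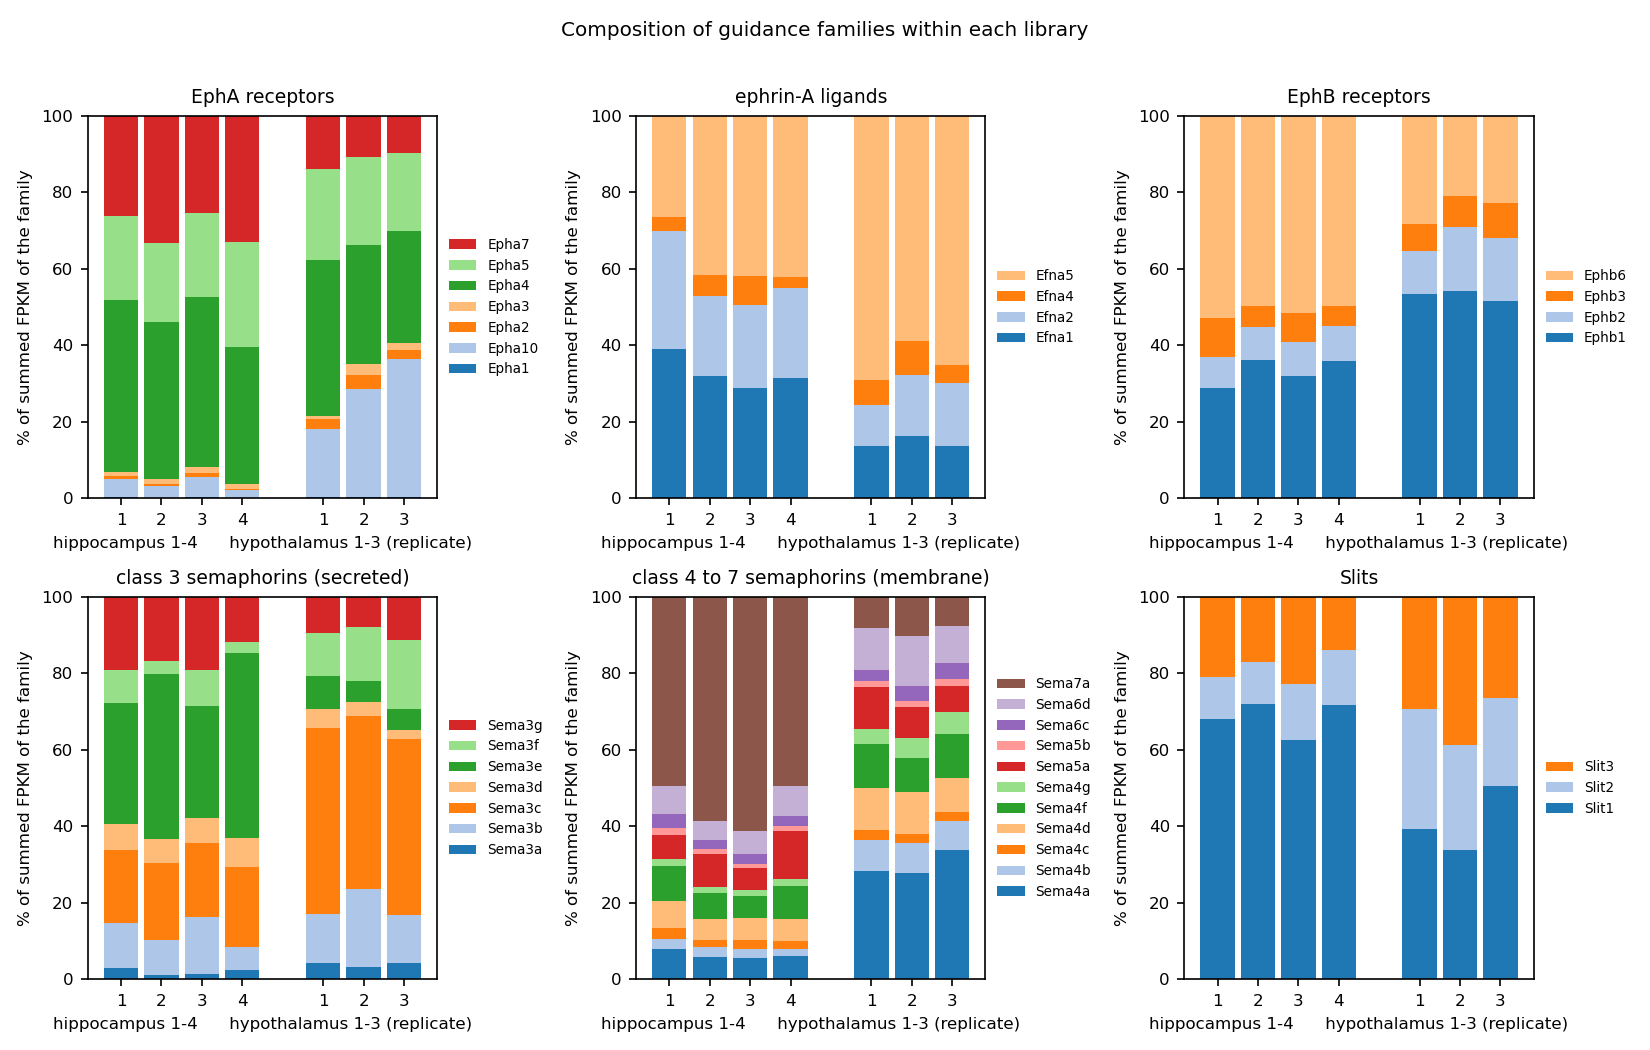
Percent of a family's summed FPKM held by each member in each library (bars, hippocampus replicates 1 to 4 and hypothalamus replicates 1 to 3), for 6 families. Sema7a, Sema3e, Ephb6 and Slit1 take the largest share of their families in hippocampus means, and Sema4a, Sema3c and Ephb1 do so in hypothalamus.

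The 4 plexins and 2 neuropilins analysed were higher in hippocampus or overlapped. Plxna1, Plxna4, Plxnb1, Plxnb2 and Plxnc1 were not among the members. Plxnb3, a receptor of Sema5a, read 54.0, 31.0, 28.1 and 32.2 FPKM in hippocampus and 7.96, 10.4 and 9.41 FPKM in hypothalamus, a difference of 2.18 ± 0.24 (SE). Replicate 1 was the highest hippocampus library by far, and the remaining libraries still lay above every hypothalamus library. Nrp1, the co-receptor of Sema3a and of vascular endothelial growth factor, read 13.0, 16.7, 15.1 and 18.9 FPKM in hippocampus and 7.13, 6.53 and 4.99 FPKM in hypothalamus, a difference of 1.59 ± 0.20 (SE). Nrp2 was closer between tissues, at 14.1 to 17.9 and 8.33 to 12.02 FPKM, with a difference of 0.88 ± 0.17 (SE). The hippocampal levels of Nrp1 and Nrp2 did not differ beyond their spread, at 15.9 ± 2.52 and 16.2 ± 1.59 FPKM (SD, n = 4).

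Plxnd1, the receptor of Sema3e, read 4.91 to 8.52 FPKM in hippocampus and 3.38 to 4.44 FPKM in hypothalamus, and Plxna2, a partner of neuropilins, 9.88 to 12.5 and 9.63 to 10.1 FPKM. Neither was called. Of the plexins analysed, Plxna3 had the highest mean in hypothalamus, at 8.96, 12.7 and 13.5 FPKM, though Plxna2 was above it in replicate 1. Plxna3 read 7.12 to 9.05 FPKM in hippocampus and overlapped between the tissues. Neuropilin-1 and plexin-D1 are also expressed by blood vessels. The endothelial list, with 5 of 6 genes found and none at 0 in all libraries, read 3.60 to 4.05 in hippocampus and 3.36 to 3.70 in hypothalamus in mean log2(FPKM + 1), and its genes did not go 1 way. Cldn5 and Flt1 were called higher in hippocampus, while Tek (difference 0.40), Pecam1 (−0.16) and Cdh5 (−0.60) were not called. Its part in these receptors was not tested.

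All 3 Slits lay higher in every hippocampus library than in any hypothalamus library, as 28.2% of all symbols did, and Slit1 and Slit3 were called, beside 14.5% of all symbols. Slit1 read 64.8, 93.0, 59.9 and 85.1 FPKM in hippocampus and 12.1, 11.4 and 17.8 FPKM in hypothalamus, a difference of 2.72 ± 0.22 (SE). Slit3 read 19.95, 22.1, 21.9 and 16.6 FPKM against 8.99, 13.1 and 9.33 FPKM, with a difference of 1.22 ± 0.20 (SE) that fell under 2-fold, to 0.89, with FPKM as deposited. Slit2, at 10.3 to 16.8 and 8.20 to 9.65 FPKM, was not called, with a difference of 0.86 ± 0.17 (SE). Slit1 made up 68.6% ± 4.37 (SD, n = 4) of the Slit FPKM in hippocampus and 41.2% ± 8.43 (SD, n = 3) in hypothalamus.

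Robo receptors were less abundant than their ligands. Robo2 read 8.09, 9.44, 8.27 and 11.5 FPKM in hippocampus and 4.81, 4.29 and 3.05 FPKM in hypothalamus, a difference of 1.42 ± 0.23 (SE). Robo1 overlapped, at 5.35 to 8.13 and 3.99 to 6.76 FPKM. Robo3 was near 0 in hypothalamus, at 0.00974, 0.134 and 0.0738 FPKM, and read 3.79, 0.926, 1.03 and 0.813 FPKM in hippocampus. Without replicate 1 the groups of Robo3 still did not overlap, with a difference of 1.64 in place of 2.07, but its mean was under 1 FPKM and it was no longer among the members compared. Its difference depended on the pseudocount, at 4.02 with 0.1 and 0.83 with 5, where the call was lost. Robo4, a Robo of the vascular endothelium, read 1.05 to 1.42 and 0.513 to 0.946 FPKM. Summed Slits over summed Robos gave ratios of 5.07, 7.005, 5.09 and 6.25 in hippocampus and 3.29, 2.78 and 4.26 in hypothalamus, a ratio also chosen after the values were seen.

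Netrin receptors were led by Unc5a in both tissues. Unc5a, a receptor for repulsion by netrin-1, read 52.7, 49.4, 43.6 and 38.05 FPKM in hippocampus and 10.996, 17.9 and 25.4 FPKM in hypothalamus, a difference of 1.69 ± 0.34 (SE). Unc5b (14.7 to 18.6 and 7.96 to 13.8 FPKM) and Unc5d (7.33 to 14.5 and 6.42 to 8.12 FPKM) were not called, and Unc5d overlapped with FPKM as deposited. Dcc, the receptor for attraction, was low and overlapped, at 3.85 to 5.63 and 3.72 to 4.88 FPKM. The netrins analysed, which did not include Ntn3, were low. Ntn4 led them at 5.91, 5.41, 8.30 and 4.48 FPKM in hippocampus and 9.59, 9.61 and 8.89 FPKM in hypothalamus, and Ntn1 read 1.65 to 4.27 and 3.25 to 4.84 FPKM.

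Netrin-Gs are lipid-anchored relatives of netrins that bind the NGL proteins and not Dcc. Ntng2 read 13.9, 14.3, 12.1 and 10.6 FPKM in hippocampus and 5.22, 5.52 and 4.05 FPKM in hypothalamus, a difference of 1.59 ± 0.18 (SE). Ntng1 read 9.11, 9.08, 8.67 and 9.92 FPKM in hippocampus and 16.7, 7.69 and 10.97 FPKM in hypothalamus and overlapped, and the sign of its difference changed with the scaling. Ntng2 held 57.9% ± 4.29 (SD, n = 4) of the netrin-G FPKM in hippocampus and 30.9% ± 9.61 (SD, n = 3) in hypothalamus. Lrrc4, which encodes the netrin-G2 ligand NGL-2 and is named after its values were seen, read 26.0, 29.4, 24.0 and 26.9 FPKM in hippocampus and 11.6, 7.77 and 10.2 FPKM in hypothalamus. It was called higher in hippocampus, as 14.5% of all symbols were. Lrrc4c, of the same list of co-receptors and other cues, overlapped at 15.6 to 26.9 and 18.5 to 21.6 FPKM and was not called.

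Of the members listed at 2 loci, Epha4, Efnb3, Sema3c and Unc5c had a replicate 1 unlike the other libraries. In hypothalamus, the Unc5c locus with the higher mean read 0.0510 FPKM in replicate 1 and 7.90 and 6.52 FPKM in replicates 2 and 3, and the other locus read 5.94, 2.69 and 2.19 FPKM. Summed over loci, Unc5c read 5.99, 10.6 and 8.71 FPKM in hypothalamus, and replicate 1 was still the lowest but no longer near 0. The other loci of Epha4 and Efnb3 in hippocampus read 0.506 and 0 FPKM in replicate 1, and 3.82 to 26.9 FPKM and 15.8 to 21.4 FPKM in replicates 2 to 4. The other Sema3c locus in hypothalamus read 0.0656, 5.86 and 3.99 FPKM. With loci summed, the same 15 and 6 members were called, the difference of Sema3c was −1.48 in place of −1.21, and Epha4 held 46.1% of hippocampal EphA FPKM in place of 41.6%.

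**Figure D5:**
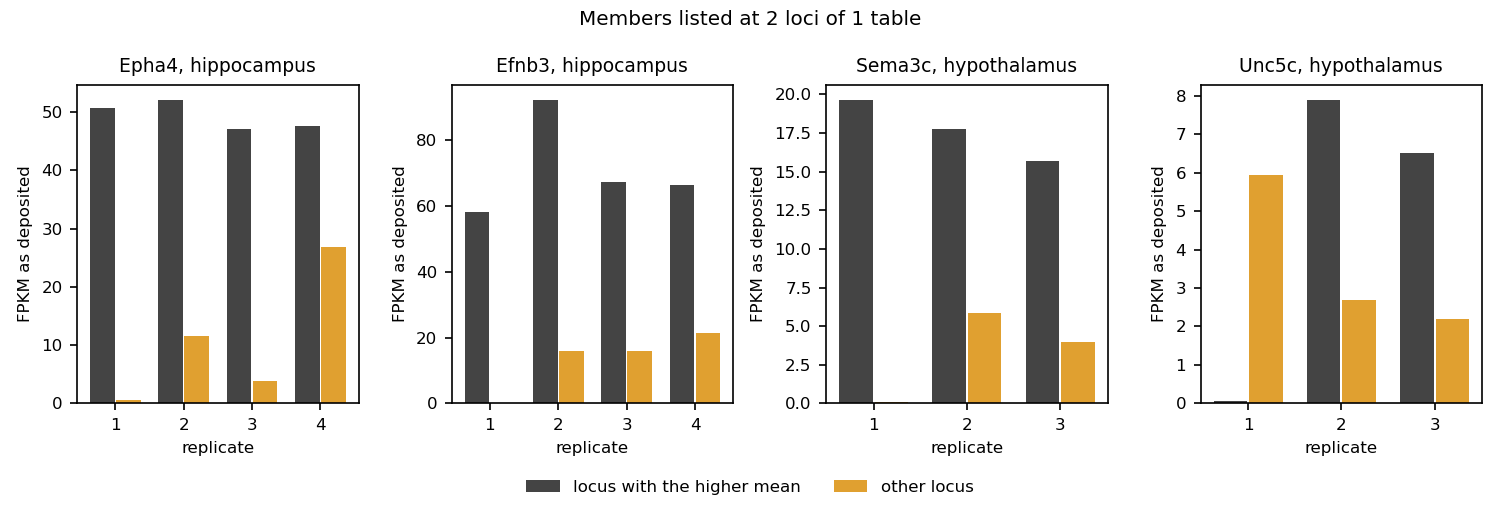
FPKM as deposited at the 2 loci listed for Epha4 and Efnb3 in hippocampus and for Sema3c and Unc5c in hypothalamus, by replicate (dark bars, the locus with the higher mean; light bars, the other). Replicate 1 is at or near 0 at the other locus of Epha4, Efnb3 and Sema3c and at the main locus of Unc5c.

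Replicates agreed about as closely for guidance genes as for all genes. Among the 54 members that averaged 1 FPKM or more in hippocampus, the median SD of log2(FPKM + 1) was 0.21, against 0.23 over all symbols, and among 54 in hypothalamus it was 0.27, against 0.25. Labels do not say whether libraries are from separate animals, and the SDs describe the spread between libraries. Of members with a mean of at least 5 FPKM, Sema5a, Sema3e and Unc5d had the largest SDs in hippocampus (0.47, 0.47 and 0.42). In hypothalamus these were Efnb1, Unc5a and Epha4 (0.59, 0.57 and 0.54).

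Co-receptors and cytoplasmic effectors of guidance signalling were called in both directions. Of 48 such genes compared, 10 were called higher in hippocampus (20.8%, against 14.5% of all symbols) and 6 in hypothalamus (12.5%, against 13.4%), and their median difference was 0.10. Mical2, an oxidase acting on actin downstream of plexins, had the largest difference, at 98.3 ± 8.21 FPKM (SD, n = 4) for hippocampus against 14.4 ± 3.70 FPKM (SD, n = 3). Chn1, whose product is a Rac inhibitor downstream of EphA4, followed with 1265 ± 493.3 and 210 ± 76.6 FPKM. Towards hypothalamus, the actin regulator Vasp read 1.91 ± 0.139 and 8.85 ± 3.08 FPKM, and the Rac activator Dock1 read 4.10 ± 0.709 and 15.8 ± 3.26 FPKM. With FPKM as deposited, 6 of these genes were called for hippocampus and 8 for hypothalamus. The shares over all symbols turned in the same way, to 8.64% and 16.9%.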

How the data were processed

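Poly-A RNA libraries were sequenced on an Illumina instrument, per the labels' protocols. The authors deposited FPKM, with a separate table for each tissue. The submitters' processing notes name TopHat, TopHat2, Bowtie, Bowtie2, Cufflinks, Cuffdiff and the build rn5, without roles or versions. The annotation, the strand setting and any normalization across libraries are not given in the sources used here.

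Loci whose status was not OK throughout a table were dropped (86 in hippocampus, 24 in hypothalamus, none of a member). The locus with the highest mean was taken per symbol and tables were joined by symbol. Libraries were scaled so that shared symbols summed to 1000000, and a pseudocount of 1 was used. Since the tables may have been normalized separately, no test was run and no p-value is given. Of 71 symbols in the family lists, 12 were not analysed here. These were Epha6, Epha8, Ephb4, Efna3, Sema6a, Sema6b, Plxna1, Plxna4, Plxnb1, Plxnb2, Plxnc1 and Ntn3. Depth is unknown: low FPKM values put 1 fragment of hippocampus replicate 2 at 1.51 times one of replicate 3, and gave no step for replicate 1 of either tissue. Upstream sequences are RefSeq's, matched by symbol. Described in full were called members whose higher mean was at least 5 FPKM, the leading member of each family in each tissue and the 3 members of at least 5 FPKM with the largest SD per tissue. Pathway partners and cell type markers followed fixed lists, with the 2 largest called partners named per direction. Members and lists were chosen with earlier results of these data known. The calling step was tested on simulated data. Python 3.11.15 with pandas 2.3.3 and numpy 2.4.6 was used. Alternatives were pseudocounts of 0.1 and 5, other filters, 4 other scalings, summed loci and libraries left out.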

Additional observations from a re-analysis of the deposited data

Results flagged for a closer look

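Dixon's ratio sets the distance between an extreme value and its neighbour against the full range of a group. It was computed for 52 results over the 4 hippocampus replicates and marked 3 of them, where chance alone marks about 1 in 20, or 2.6. Plxnb3 (ratio 0.843) was highest in replicate 1, at 54.0 FPKM against 28.1 to 32.2 FPKM in the others. The summed FPKM of the 4 plexins (ratio 0.937), of which Plxnb3 is the largest part, was 80.2 in replicate 1 and 55.6 to 57.2 in the others. The endothelial marker list (ratio 0.842) was highest in replicate 3, at 4.05 in mean log2(FPKM + 1) against 3.60 to 3.67. The causes were not tested.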

How the results depend on the processing

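No paired analysis was possible because no label ties a replicate number to an animal and no test was made that a block could enter. With a pseudocount of 5, 3 members in place of 6 were called higher in hypothalamus, Efna4, Sema3f and Sema4b being lost, and the share over all symbols was 9.14% in place of 13.4%. With FPKM as deposited, 6 pathway partners in place of 10 were called higher in hippocampus and 8 in place of 6 in hypothalamus, and the median member difference was 0.20 in place of 0.50. The causes of these shifts were not tested. All other alternatives run kept the total counts of calls for members and partners within 1.5 times. Counts within a family are small and 1 gene can double them. Efna4 left the ephrin-A calls under each of the other 4 scalings, and Plxnd1 was called without hippocampus replicate 4, Unc5b without hypothalamus replicate 2, Sema4g and Efnb1 without hypothalamus replicate 1, and Slit2 and Sema3d without replicate 1 of both tissues. With a pseudocount of 0.1, Robo4 was called for hippocampus and Sema3a for hypothalamus. Leaving out each library in turn gave 14 to 16 members higher in hippocampus, 5 to 8 in hypothalamus, 9 to 12 and 4 to 7 pathway partners, a median member difference of 0.47 to 0.52, and member SDs of 0.17 to 0.25 in hippocampus and 0.16 to 0.31 in hypothalamus. Over the 28 members described, called or not, 12 recomputed differences moved by more than 1 SD between replicates and 464 did not. With FPKM as deposited, those of Ephb1, Ephb6, Nrp1, Nrp2, Ntng2, Robo2, Sema3e, Slit1 and Slit3 moved, each towards hypothalamus. No called member among the 28 changed sign under the alternatives run. Of the 59 members, Efna1, Ntng1, Sema4f and Sema6c changed sign with the scaling. FPKM carry no counts, so counting error at low members such as Robo3, Efna4 and Epha3 is unknown.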

Other observations

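Sema6b, a membrane semaphorin that matched the naming rule in the hypothalamus table alone, read 19.7, 22.6 and 31.6 FPKM at the higher of 2 loci there and was not compared between tissues. Members did not move together across hippocampus replicates. Of 54 with a mean of at least 1 FPKM, 13 were higher in replicates 2 and 4 than in replicates 1 and 3, among them Epha7, Epha5, Sema3e, Sema5a, Slit1 and Nrp1, and 16 showed the opposite, among them Ephb3, Plxnd1 and Sema3f. Over all symbols these shares were 29.2% and 21.3%, against 24.1% and 29.6% of the members. In hypothalamus, replicate 1 was the lowest library for 29 of 54 members (53.7%), where it was lowest for 35.9% of all symbols, while Epha4, Epha5 and Epha7 were highest in it. The genes named here were chosen after their values were seen.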
